A study of Homo sapiens with 18 samples.

Results

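A small set of transcripts had higher signals in neuroblastoma cells given a hairpin against ERK5 than in those given a control hairpin. This held whichever ERK5 hairpin and whichever cell line was used. The set holds 69 of the 21448 array probes, and 62 of the 69 carry a gene symbol. A probe (transcript cluster, 1 summarised value per gene or transcript) was taken as a member when its mean log2 signal exceeded that of the control hairpin by 0.8 or more in all 4 differences, that is for each ERK5 hairpin, shERK5-4 and shERK5-5, in each cell line, CHLA-90 and SK-N-BE(2). The members were thus chosen by these 4 differences, which are given as a description, with no test. Because 1 log2 unit is a doubling, 0.8 is a little under a doubling of signal.

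Both lines are human neuroblastoma lines, and SK-N-BE(2) carries amplified MYCN while CHLA-90 does not. Cells were seeded at 250000 per well with lentivirus made in HEK-293T cells and carrying a pLKO vector. The 6 groups were CHLA-90 given shERK5-4, shERK5-5 or the control hairpin shNSC, and SK-N-BE(2) given the same 3 hairpins. Each group had 3 biological replicates, total RNA was taken 72 hours after transduction, and every group, shNSC included, had received lentivirus. In each line both ERK5 hairpins were set against the same 3 shNSC arrays. A shift in those arrays, or an effect of shNSC itself, would enter both differences and cannot be told apart from an effect of the ERK5 hairpins. Signals are averages over a culture, so fewer expressing cells and less RNA per cell cannot be told apart.

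ERK5, encoded by MAPK7, is a mitogen-activated protein kinase that is switched on by the kinase MEK5 (MAP2K5), itself activated by MEKK2 and MEKK3. It phosphorylates MEF2 transcription factors and also carries a transcriptional activation domain in its own long C-terminal tail. In neuroblastoma, a tumour of the sympathetic lineage, ERK5 has been studied as a kinase that promotes proliferation. A hairpin RNA lowers its target messenger RNA but can also act on other transcripts, so that the set shared by a pair of hairpins is the usual starting list for effects that follow the target.

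The MAPK7 signal, that of the target, was lower with either hairpin in each line. It lay between 7.15 and 7.57 with shERK5-4 and between 7.22 and 7.83 with shERK5-5 in CHLA-90, against 8.24 to 8.64 with shNSC. For SK-N-BE(2) it lay between 5.97 and 6.28 with shERK5-4 and between 6.02 and 6.28 with shERK5-5, against 6.46 to 6.99 with shNSC. The SK-N-BE(2) calls (limma adjusted p = 0.0103 with shERK5-4 and 0.0319 with shERK5-5) rest on few arrays: without shNSC replicate 1 they were 0.0610 and 0.149, and the shERK5-5 call was also lost without shNSC replicate 3 (0.110), shERK5-5 replicate 1 (0.0833) or shERK5-5 replicate 2 (0.123). Arrays of a group correlated across probes with a mean r between 0.990 and 0.996, and the lowest means were those of CHLA-90 shERK5-5 and SK-N-BE(2) shERK5-4. Of 10 neuroblastoma markers 9 had a probe, and all 9 were above the 75th percentile of signals in CHLA-90 shNSC and 7 of 9 in SK-N-BE(2) shNSC, while blood, endothelial and Schwann cell markers had 0 above it in any group. In SK-N-BE(2) the blood marker PTPRC had means of 7.90 with shNSC, 5.94 with shERK5-4 and 8.32 with shERK5-5. The Schwann cell marker S100B rose there by 0.66 with shERK5-4. The 5 measured fibroblast markers had array medians of 8.62 to 9.69, and single ones moved in either direction. In CHLA-90 DCN and PDGFRA fell with shERK5-4 by 1.63 and 1.58, while COL1A1 and LUM stood at 0.12 and 0.09. With shERK5-5 LUM rose there by 0.72. In SK-N-BE(2) LUM was -3.17 with shERK5-4 and 1.26 with shERK5-5, and DCN -0.56 and 2.21. There PDGFRA was -0.31 with shERK5-4 and 0.96 with shERK5-5, and COL1A1 0.88 and 0.46. COL1A2 was not called with either hairpin in either line. Neuroblastoma markers moved with shERK5-4: their median over the 9 markers ranged over the arrays from 10.34 to 10.51 in CHLA-90 with shERK5-4 and from 12.94 to 13.42 with shERK5-5, against 13.45 to 13.95 with shNSC. For SK-N-BE(2) the range was from 10.48 to 10.97 with shERK5-4 and from 11.94 to 12.51 with shERK5-5, against 11.71 to 11.96 with shNSC. None of the neuroblastoma or fibroblast markers is a member, and the part of these shifts in the members' values was not tested.

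On every one of the 12 hairpin arrays the members stood well above the control mean of their line. The median over the 69 members of the signal minus the shNSC mean was 1.40, 1.45 and 1.50 on the CHLA-90 shERK5-4 arrays and 1.24, 1.14 and 1.31 on the shERK5-5 arrays, against 0.01, -0.11 and 0.10 on the shNSC arrays. In SK-N-BE(2) it was 1.62, 1.83 and 1.80 with shERK5-4 and 1.43, 1.26 and 1.51 with shERK5-5, against -0.04, -0.04 and 0.08 with shNSC. Since the rule used the means of these arrays, the counts that follow are a description. On 11 of the 12 hairpin arrays all 69 members exceeded the shNSC mean, and on CHLA-90 shERK5-5 replicate 1 there were 68, the exception being CLIP1. All 6 hairpin arrays lay above all 3 shNSC arrays for 66 members in CHLA-90 (4.97% of all probes did so), for 67 in SK-N-BE(2) (6.19%) and for 64 in both (1.59%). The named exceptions were NMRK1 and CLIP1 in CHLA-90 and RNF149 and CTDSPL in SK-N-BE(2). All 69 were called higher by limma in each of the 4 single contrasts, where 10.0% (CHLA-90 shERK5-4), 5.85% (CHLA-90 shERK5-5), 12.2% (SK-N-BE(2) shERK5-4) and 6.76% (SK-N-BE(2) shERK5-5) of all probes were, and 0.685% in all 4. The rule used these contrasts, so nothing is read from those counts.

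**Figure D1:**
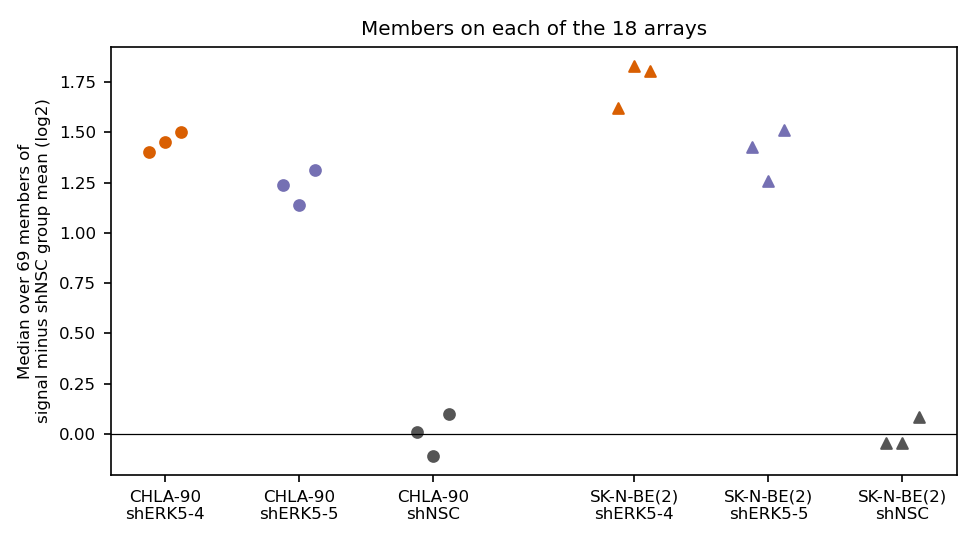
Median over the 69 members of the log2 signal minus the shNSC mean of the same line (vertical axis), 1 point per array, for the 3 groups of CHLA-90 (circles) and of SK-N-BE(2) (triangles). The hairpin arrays sit between 1.14 and 1.83 and the shNSC arrays between -0.11 and 0.10.

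Within the set the size of the difference varied widely. The median member differed from shNSC by 1.45 (shERK5-4) and 1.18 (shERK5-5) in CHLA-90, and by 1.73 (shERK5-4) and 1.37 (shERK5-5) in SK-N-BE(2), where the medians over all probes lay within 0.05 of 0. Sets of 4 differences are given in that order throughout, and the highest values were 3.97, 3.69, 3.99 and 4.69. All 4 differences reached 1 in 35 members, 1.5 in 10 and 2 in 3, namely DYNLRB1, NECTIN1 and ATG4D. The weakest of the 4 differences was CHLA-90 with shERK5-5 in 33 members, SK-N-BE(2) with shERK5-5 in 17, CHLA-90 with shERK5-4 in 11 and SK-N-BE(2) with shERK5-4 in 8. Just inside the threshold were MFHAS1, CPEB3 and FAM222B, whose smallest differences were 0.82, 0.81 and 0.80. Just outside were TAPBP and GLIS2 at 0.79 each and CDC42 at 0.78, so the edge of the set is not a gap. Most members were of middle to high signal in the control cells: their shNSC signals had a median at the 68.3 percentile of all probes in CHLA-90 and the 68.5 percentile in SK-N-BE(2), with a lowest value at the 42.4 percentile in CHLA-90 and the 12.1 percentile in SK-N-BE(2), that of DTNA.

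**Figure D2:**
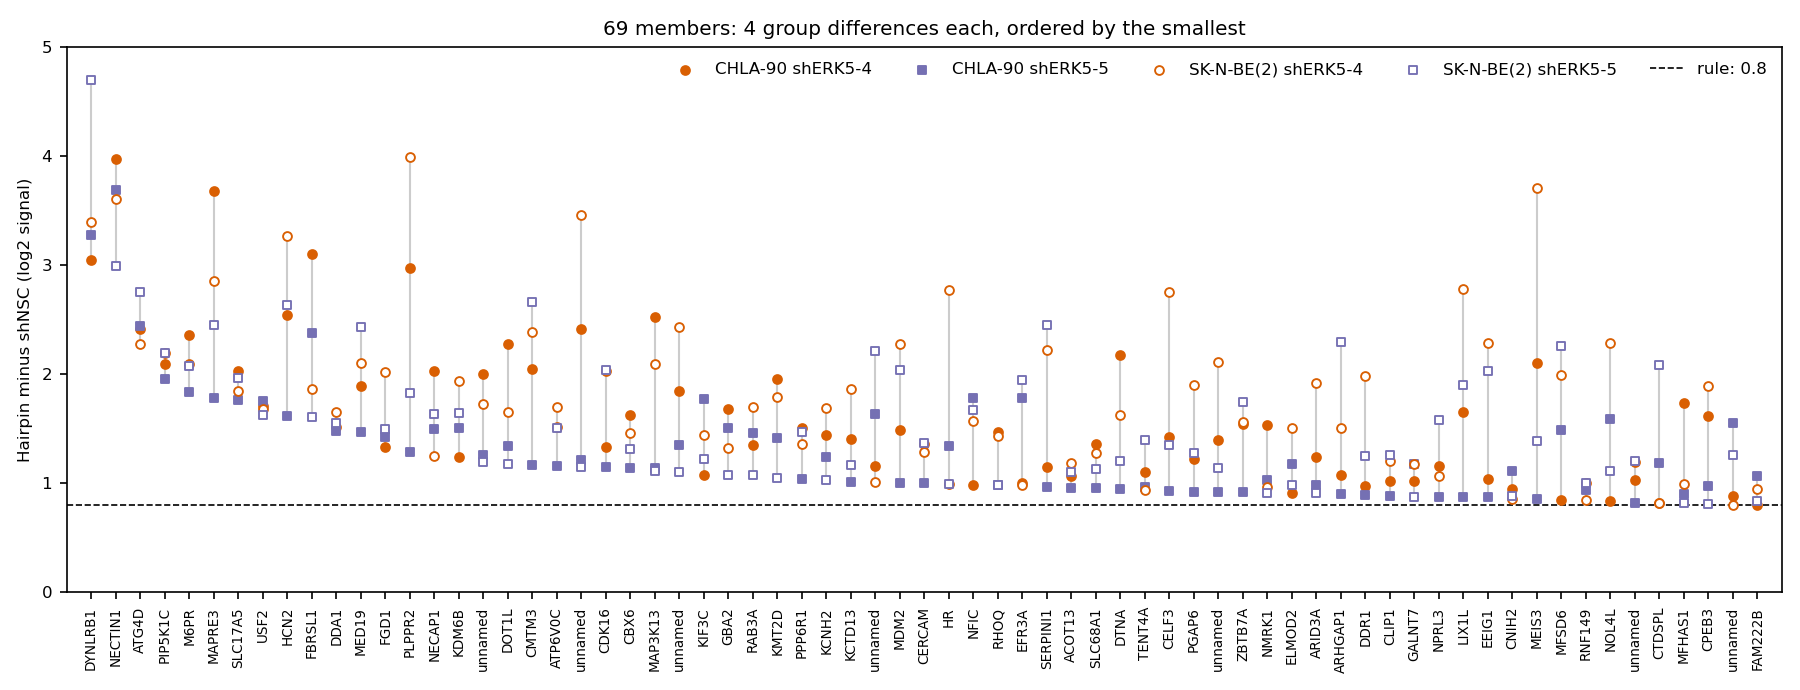
Each member's 4 differences from shNSC (vertical axis, log2 signal) for CHLA-90 (filled) and SK-N-BE(2) (open), with shERK5-4 as circles and shERK5-5 as squares, ordered by the smallest difference. The dashed line is the 0.8 threshold, and the vertical grey line spans a member's 4 values, from 0.12 for the most even member to 2.86 for the least even.

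Ranked by the smallest of the 4 differences, the members farthest from the control were a motor subunit and an adhesion molecule. DYNLRB1 is a light chain of cytoplasmic dynein, the motor that carries cargo towards microtubule minus ends. Its log2 signals in CHLA-90 were 13.97, 13.98 and 14.07 with shERK5-4 and 13.79, 14.46 and 14.48 with shERK5-5, against 11.21, 10.67 and 11.01 with shNSC. In SK-N-BE(2) they were 12.04, 12.01 and 12.12 with shERK5-4 and 13.42, 13.26 and 13.37 with shERK5-5, against 8.52, 8.75 and 8.70 with shNSC. The groups do not overlap, and the differences correspond to 8.24-fold and 9.71-fold in CHLA-90 and 10.6-fold and 25.9-fold in SK-N-BE(2). NECTIN1, an immunoglobulin-like molecule of adherens junctions, had 11.51, 11.71 and 11.84 with shERK5-4 and 11.10, 11.36 and 11.75 with shERK5-5 in CHLA-90, against 7.80, 7.21 and 8.14 with shNSC. Its SK-N-BE(2) signals were 11.74, 12.18 and 11.99 with shERK5-4 and 11.32, 11.20 and 11.55 with shERK5-5, against 7.85, 8.26 and 8.98 with shNSC. NECTIN1 differed by 3.97 ± 0.25 (SE of the model, n = 3 arrays a group here and below) and 3.69 ± 0.25 in CHLA-90 and by 3.61 ± 0.25 and 2.99 ± 0.25 in SK-N-BE(2), with the hairpin arrays over 2 log2 units above every shNSC array.

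**Figure D3:**
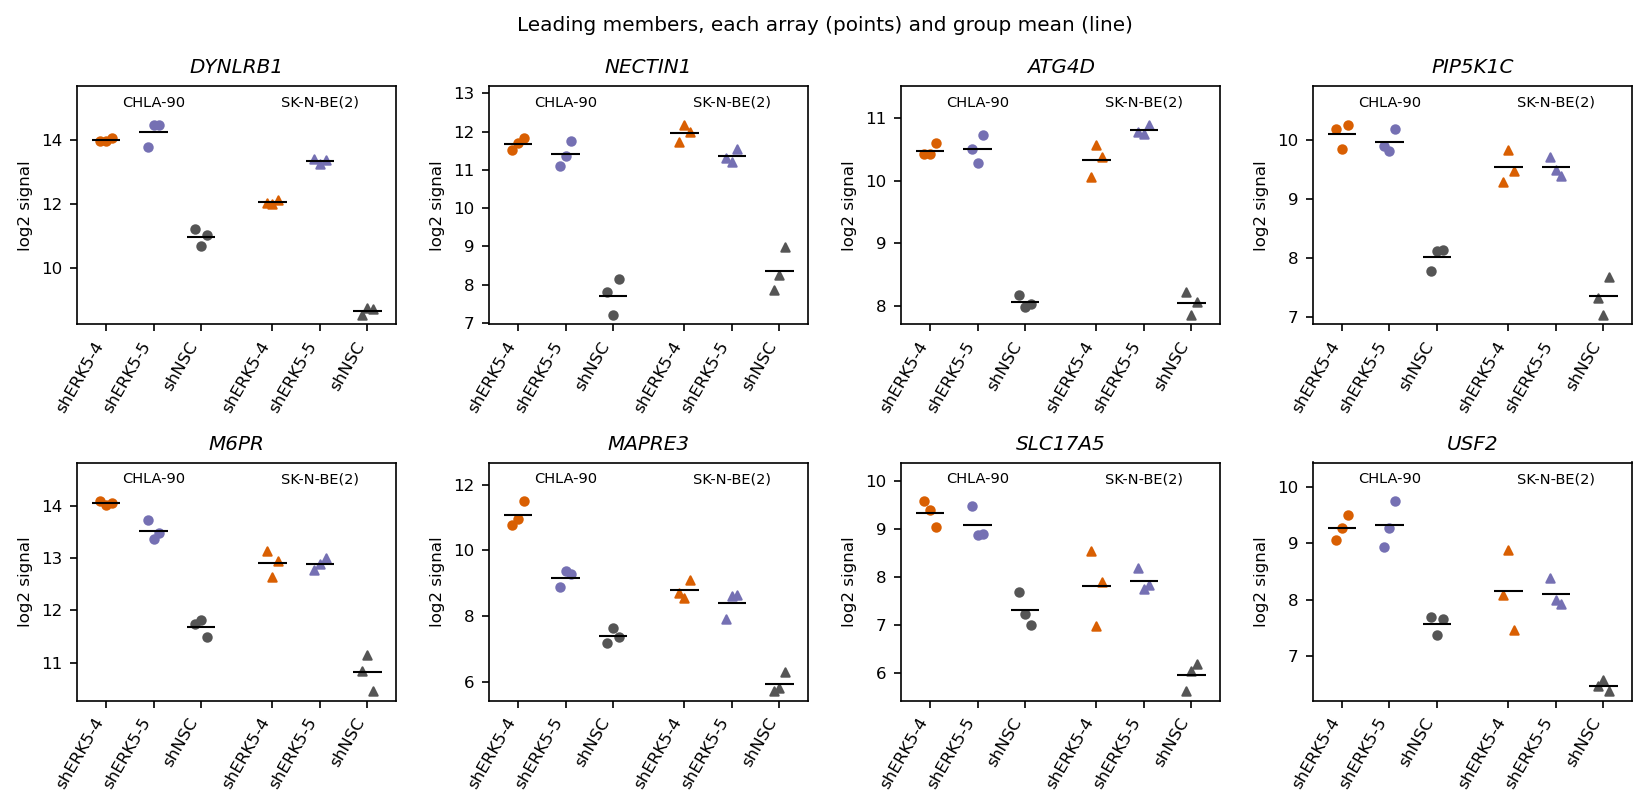
Log2 signal (vertical axis) of the 8 leading named members on each array (points, circles for CHLA-90 and triangles for SK-N-BE(2)) with the group mean as a line. In each panel all 6 hairpin arrays of a line lie above its 3 shNSC arrays. By the smallest of the 4 differences DYNLRB1 and NECTIN1 come first, at 3.04 and 2.99.

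Membrane traffic, lysosomes and lipid signalling supplied 10 members, among them 4 of the 7 strongest by their smallest difference. The grouping by function was made after the values were seen and supports nothing. ATG4D, a protease that processes the autophagy proteins of the ATG8 family, had 10.42, 10.42 and 10.60 with shERK5-4 and 10.50, 10.28 and 10.73 with shERK5-5 in CHLA-90, against 8.18, 7.98 and 8.03 with shNSC. In SK-N-BE(2) it had 10.06, 10.56 and 10.37 with shERK5-4 and 10.78, 10.74 and 10.89 with shERK5-5, against 8.23, 7.86 and 8.07 with shNSC. The hairpin and shNSC arrays of ATG4D did not overlap in either line. PIP5K1C, the kinase that supplies PI(4,5)P2 at synapses and focal adhesions, had 10.19, 9.85 and 10.26 with shERK5-4 and 9.90, 9.81 and 10.18 with shERK5-5 in CHLA-90, against 7.78, 8.11 and 8.14 with shNSC. Its SK-N-BE(2) signals were 9.29, 9.84 and 9.48 with shERK5-4 and 9.72, 9.50 and 9.39 with shERK5-5, against 7.32, 7.03 and 7.68 with shNSC. PIP5K1C was among the most even members, with differences of 2.09, 1.95, 2.19 and 2.19, each ± 0.20.

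M6PR, the cation-dependent receptor that sorts mannose 6-phosphate tagged enzymes to lysosomes, had 14.09, 14.01 and 14.05 with shERK5-4 and 13.73, 13.36 and 13.48 with shERK5-5 in CHLA-90, against 11.75, 11.81 and 11.50 with shNSC. The SK-N-BE(2) arrays had 13.14, 12.64 and 12.94 with shERK5-4 and 12.78, 12.88 and 13.01 with shERK5-5, against 10.84, 11.15 and 10.45 with shNSC. SLC17A5, the lysosomal sialic acid exporter sialin, had 9.57, 9.38 and 9.04 with shERK5-4 and 9.47, 8.86 and 8.88 with shERK5-5 in CHLA-90, against 7.69, 7.22 and 7.0 with shNSC. Neither gene's hairpin arrays overlapped its shNSC arrays in CHLA-90. SK-N-BE(2) signals of SLC17A5 were 8.54, 6.98 and 7.89 with shERK5-4 and 8.18, 7.74 and 7.83 with shERK5-5, against 5.62, 6.05 and 6.19 with shNSC, and shERK5-4 replicate 2 was the lowest hairpin array. ATP6V0C, the membrane ring subunit of the proton pump that acidifies lysosomes, was bright already with shNSC (12.66 in CHLA-90 and 13.16 in SK-N-BE(2)) and differed by 1.52, 1.16, 1.70 and 1.51. The endocytic adaptor protein NECAP1 differed by 2.03, 1.50, 1.25 and 1.64, and the synaptic vesicle GTPase RAB3A by 1.35, 1.46, 1.70 and 1.07. GBA2, a glucosylceramidase outside lysosomes, differed by 1.68, 1.50, 1.32 and 1.07. EFR3A, which anchors a phosphatidylinositol 4-kinase at the plasma membrane, differed by 1.00, 1.78, 0.98 and 1.95, and NPRL3, a subunit of the GATOR1 complex that restrains mTORC1 when amino acids are short, by 1.16, 0.88, 1.07 and 1.58.

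Microtubule, motor and small GTPase genes, with the dystrophin-complex gene DTNA placed beside them, gave 9 members. MAPRE3 encodes EB3, a neuronal protein of growing microtubule ends. It had 10.78, 10.94 and 11.49 with shERK5-4 and 8.87, 9.37 and 9.27 with shERK5-5 in CHLA-90, against 7.19, 7.63 and 7.35 with shNSC. In SK-N-BE(2) it had 8.71, 8.55 and 9.11 with shERK5-4 and 7.90, 8.61 and 8.64 with shERK5-5, against 5.71, 5.81 and 6.29 with shNSC. The CHLA-90 shERK5-4 arrays lay well above those with shERK5-5, which were still above every shNSC array. CLIP1, another protein of microtubule plus ends, differed by 1.02, 0.88, 1.20 and 1.26, and in CHLA-90 shERK5-5 replicate 1, at 6.92, fell among its shNSC arrays (6.95 to 7.18). The neuronal kinesin KIF3C differed by 1.07, 1.78, 1.44 and 1.22. FGD1, an exchange factor for CDC42, differed by 1.34, 1.42, 2.02 and 1.50, and CDC42 itself stood just outside the threshold. The small GTPase RHOQ differed by 1.47, 0.98, 1.44 and 0.98, and ARHGAP1, a GTPase-activating protein for CDC42, by 1.08, 0.90, 1.50 and 2.30. ELMOD2, a GTPase-activating protein for ARL2, differed by 0.91, 1.18, 1.50 and 0.98. DTNA, alpha-dystrobrevin of the dystrophin complex, was bright in CHLA-90 (10.51 with shNSC) and near the dim end in SK-N-BE(2) (3.08 with shNSC), and differed by 2.17, 0.95, 1.62 and 1.20.

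Chromatin and transcription regulators formed a group of 12. USF2, a basic helix-loop-helix factor that binds E-boxes, had 9.06, 9.28 and 9.50 with shERK5-4 and 8.94, 9.28 and 9.75 with shERK5-5 in CHLA-90, against 7.70, 7.37 and 7.65 with shNSC. Its SK-N-BE(2) signals were 8.08, 8.89 and 7.47 with shERK5-4 and 8.38, 8.0 and 7.92 with shERK5-5, against 6.46, 6.58 and 6.37 with shNSC. USF2 was the most even member of the leading 8, with differences of 1.71, 1.75, 1.68 and 1.63, each ± 0.26. FBRSL1, a relative of the neurodevelopmental gene AUTS2, differed by 3.11, 2.38, 1.86 and 1.61. MED19, a Mediator subunit, differed by 1.89, 1.47, 2.10 and 2.43. Several histone modifiers were members. KDM6B, which removes repressive methyl groups from histone H3 lysine 27, differed by 1.24, 1.50, 1.94 and 1.64, DOT1L, the methyltransferase of H3 lysine 79, by 2.27, 1.34, 1.65 and 1.17, and KMT2D, an enhancer methyltransferase of H3 lysine 4, by 1.96, 1.42, 1.79 and 1.05. The Polycomb protein CBX6 differed by 1.63, 1.14, 1.46 and 1.31. Among DNA-binding factors, NFIC differed by 0.99, 1.78, 1.57 and 1.67, the repressor ZBTB7A by 1.55, 0.92, 1.56 and 1.75, ARID3A by 1.24, 0.99, 1.92 and 0.91, and the homeobox factor MEIS3 by 2.10, 0.85, 3.71 and 1.39. HR, the hairless corepressor, differed by 0.99, 1.34, 2.77 and 1.00. Another 3 members act on RNA: the neuronal splicing regulator CELF3 (1.42, 0.93, 2.75 and 1.35), the translational regulator CPEB3 (1.62, 0.97, 1.89 and 0.81) and the non-canonical poly(A) polymerase TENT4A (1.11, 0.97, 0.94 and 1.40).

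Beside NECTIN1, surface proteins and channels held 6 members. HCN2, a pacemaker channel opened by hyperpolarisation, differed by 2.54, 1.61, 3.27 and 2.64, and KCNH2, the hERG potassium channel, by 1.45, 1.24, 1.69 and 1.03 from a bright shNSC signal of 13.04 in CHLA-90 and 13.97 in SK-N-BE(2). PLPPR2, a neuronal membrane protein related to lipid phosphatases, differed by 2.98, 1.29, 3.99 and 1.83. The collagen receptor kinase DDR1 differed by 0.98, 0.90, 1.98 and 1.25, the MARVEL-domain protein CMTM3 by 2.04, 1.17, 2.39 and 2.66, and the AMPA receptor auxiliary subunit CNIH2 by 0.94, 1.12, 0.86 and 0.88. Ubiquitin ligases, kinases and phosphatases contributed 8. MDM2, the ligase that degrades p53, differed by 1.49, 1.01, 2.28 and 2.04, and DDA1, a component of CUL4 ligases, by 1.52, 1.48, 1.65 and 1.55. KCTD13, a CUL3 adaptor, differed by 1.41, 1.01, 1.86 and 1.17, and the ligase RNF149 by 1.00, 0.94, 0.84 and 1.01. MAP3K13, the leucine zipper-bearing kinase of the neuronal JNK response, differed by 2.53, 1.14, 2.09 and 1.11, and the cyclin Y-dependent kinase CDK16 by 1.34, 1.15, 2.03 and 2.04. PPP6R1, a subunit of protein phosphatase 6, differed by 1.51, 1.04, 1.36 and 1.47, and the phosphatase CTDSPL by 0.82, 1.18, 0.82 and 2.09.

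The other 13 named members have no shared role here. ACOT13, a mitochondrial acyl-CoA thioesterase, differed by 1.07, 0.96, 1.18 and 1.11. NMRK1, a nicotinamide riboside kinase of NAD synthesis, differed by 1.53, 1.03, 0.96 and 0.91. SERPINI1, the secreted protease inhibitor neuroserpin, differed by 1.15, 0.97, 2.22 and 2.45, and GALNT7, a glycosyltransferase of O-linked glycans, by 1.02, 1.18, 1.18 and 0.88. CERCAM, EEIG1, FAM222B, LIX1L, MFHAS1, MFSD6, NOL4L, PGAP6 and SLC68A1 complete the list. Over these 13 genes the median differences were 1.15, 0.97, 1.29 and 1.13. The 7 probes without a symbol had medians of 1.40, 1.26, 1.73 and 1.20, and their smallest differences ran from 0.80 to 1.20.

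The hairpins were then set against each other. The rule does not set this difference but bounds it, since each hairpin had to reach 0.8 on these same arrays. Fewer of all probes were called higher with shERK5-5 (5.85% in CHLA-90 and 6.76% in SK-N-BE(2)) than with shERK5-4 (10.0% and 12.2%). A floor on the weaker hairpin can favour members that are higher with shERK5-4. The counts and p-values for the hairpin difference are therefore a description of the set. The shERK5-4 signal exceeded the shERK5-5 signal for 19 of 69 members in CHLA-90 by limma (14.8% of all probes) and was below it for 7 (12.4%). In SK-N-BE(2) 20 members were higher with shERK5-4 than with shERK5-5 (11.8% of all probes) and 7 lower (12.6%). As shares of the 69, 27.5% were higher and 10.1% lower in CHLA-90, and 29.0% higher and 10.1% lower in SK-N-BE(2), so the lower shares were near those of all probes. The median shERK5-4 minus shERK5-5 difference over the members was 0.26 in CHLA-90 and 0.19 in SK-N-BE(2), against -0.05 and 0.03 over all probes. Without CHLA-90 shERK5-4 replicate 2 or shERK5-5 replicate 2, the CHLA-90 count of 26 in both directions was 17. Called with the same sign in both lines were 9 members with shERK5-4 higher (6.28% of all probes) and 2 with shERK5-4 lower (5.38%), and 1 was called with opposite signs (0.974%). Across the 69 members the hairpin differences of the lines, which share no arrays, had a Pearson r of 0.47. It is given as a description because genes are not independent, and the r over all probes was not computed. Over all probes too, calls with the same sign in both lines outnumbered those with opposite signs. The neuroblastoma markers described above also differed between the hairpins, with every shERK5-4 array median below every shERK5-5 one in both lines. The fibroblast markers DCN, LUM and PDGFRA also had unlike values with the hairpins, and the part of both lists in these differences was not tested.

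PLPPR2, MEIS3 and MAP3K13 were higher with shERK5-4 than with shERK5-5 in both lines. PLPPR2 had 11.83, 11.65 and 11.81 with shERK5-4 and 10.45, 9.70 and 10.07 with shERK5-5 in CHLA-90, and 11.95, 11.84 and 12.03 with shERK5-4 and 9.66, 9.60 and 10.08 with shERK5-5 in SK-N-BE(2). Its shNSC arrays lay between 8.44 and 9.06 in CHLA-90 and between 7.41 and 8.26 in SK-N-BE(2). The arrays thus fell into 3 levels in each line, and the hairpin difference was 1.69 ± 0.23 (adjusted p = 6.00e-06) in CHLA-90 and 2.16 ± 0.23 (1.23e-07) in SK-N-BE(2). MEIS3 had 11.69, 11.98 and 12.07 with shERK5-4 and 10.29, 10.81 and 10.89 with shERK5-5 in CHLA-90, against 9.92, 9.47 and 10.04 with shNSC. Its SK-N-BE(2) arrays gave 11.65, 12.49 and 12.14 with shERK5-4 and 9.46, 9.75 and 10.11 with shERK5-5, against 8.04, 8.40 and 8.71 with shNSC. Its hairpin difference was 1.25 ± 0.24 in CHLA-90 (adjusted p = 0.000369) and 2.32 ± 0.24 in SK-N-BE(2) (8.68e-08). MAP3K13 had 9.15, 9.50 and 9.21 with shERK5-4 and 8.02, 7.50 and 8.19 with shERK5-5 in CHLA-90, and 6.60, 6.46 and 6.35 with shERK5-4 and 5.58, 5.48 and 5.41 with shERK5-5 in SK-N-BE(2). Its hairpin difference was 1.38 ± 0.20 (adjusted p = 1.19e-05) and 0.98 ± 0.20 (0.000485), and no shERK5-5 array reached a shERK5-4 array. LIX1L, CPEB3 and RHOQ completed the named genes of this kind. EFR3A was the named gene lower with shERK5-4 in both lines, by 0.78 and 0.97 on the log2 scale.

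Other members separated the hairpins in 1 line. MAPRE3 was higher with shERK5-4 in CHLA-90 by 1.90 ± 0.24 (adjusted p = 2.08e-06), while in SK-N-BE(2) the difference was 0.41 with a 95% confidence interval of -0.08 to 0.90 (0.255). DTNA had 12.72, 12.67 and 12.66 with shERK5-4 and 11.61, 11.65 and 11.11 with shERK5-5 in CHLA-90, a difference of 1.23 ± 0.23 (0.000366), and in SK-N-BE(2) the difference was 0.42 (interval -0.06 to 0.91). DYNLRB1 was lower with shERK5-4 than with shERK5-5 in SK-N-BE(2) by 1.29 on the log2 scale (adjusted p = 8.03e-06), and in CHLA-90 the difference was -0.24 (interval -0.62 to 0.14). HR had 8.48, 9.69 and 8.78 with shERK5-4 and 7.38, 7.30 and 6.95 with shERK5-5 in SK-N-BE(2), a difference of 1.77 ± 0.26 (1.54e-05), and in CHLA-90 the difference was -0.35 (interval -0.89 to 0.20). The signs were opposite for NOL4L. It had 11.37, 11.38 and 11.51 with shERK5-4 and 11.74, 12.64 and 12.13 with shERK5-5 in CHLA-90, a difference of -0.75 ± 0.21 (adjusted p = 0.00937). In SK-N-BE(2) it had 11.13, 11.81 and 11.56 with shERK5-4 and 10.53, 10.06 and 10.40 with shERK5-5, a difference of 1.17 ± 0.21 (0.000139). Whether the hairpin difference itself differs between the lines was not tested. For PIP5K1C and USF2 no hairpin difference was detected. The PIP5K1C interval was -0.27 to 0.54 in CHLA-90 and -0.41 to 0.41 in SK-N-BE(2), and that of USF2 -0.59 to 0.50 and -0.50 to 0.59. In all, 26 of the 69 members passed neither hairpin test nor the test between lines.

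**Figure D4:**
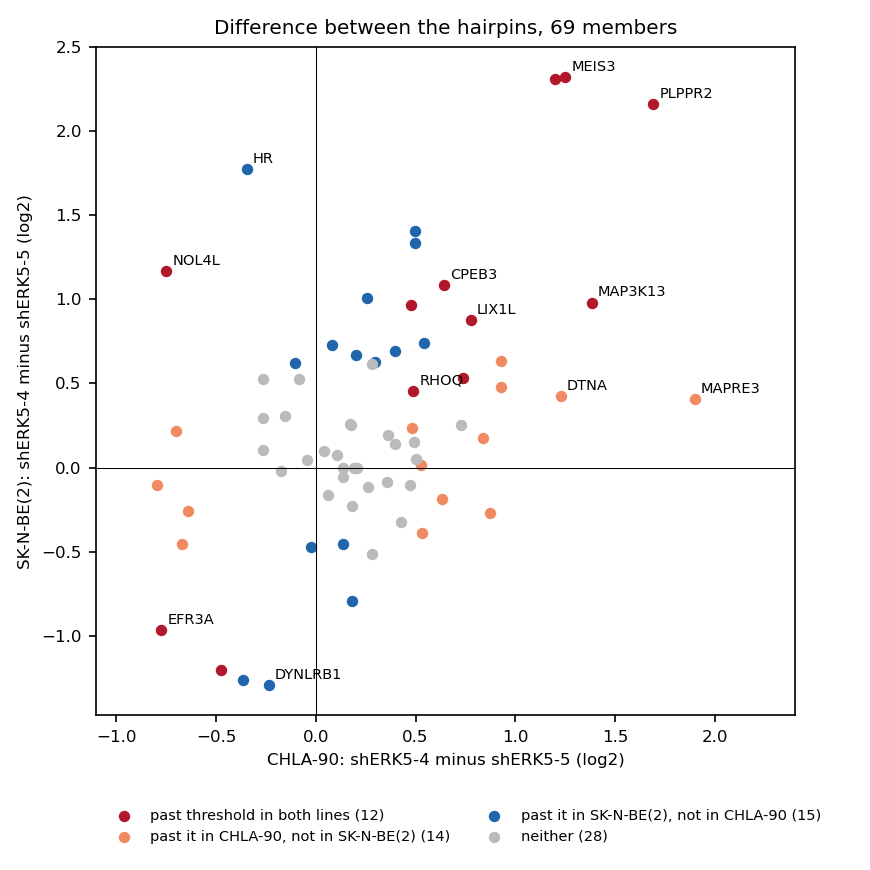
shERK5-4 minus shERK5-5 (log2 signal) of each member in CHLA-90 (horizontal axis) and SK-N-BE(2) (vertical axis), coloured by limma adjusted p under 0.05 in both lines (12), in CHLA-90 and not SK-N-BE(2) (14), in SK-N-BE(2) and not CHLA-90 (15) or in neither (28). PLPPR2 and MEIS3 lie far to the upper right, EFR3A to the lower left and NOL4L to the upper left.

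The mean response of both hairpins was compared between the lines in the same model. For 8 of 69 members it was smaller in CHLA-90 than in SK-N-BE(2) (2.20% of all probes), and for 0 it was larger (2.19%) by limma, while at an unadjusted p under 0.05 the counts were 17 (7.99% of all probes) and 1 (8.77%). The median difference, CHLA-90 minus SK-N-BE(2), was -0.17 over the members and 0.02 over all probes. The count rests on the control arrays: it was 4 without CHLA-90 shNSC replicate 1 or 3 or without SK-N-BE(2) shNSC replicate 1, and 5 without SK-N-BE(2) shNSC replicate 2. EEIG1, a gene first named in oestrogen signalling, had 7.17, 7.28 and 6.89 with shERK5-4 and 7.06, 6.82 and 6.94 with shERK5-5 in CHLA-90, against 6.08, 5.93 and 6.20 with shNSC. SK-N-BE(2) arrays read 8.66, 9.53 and 8.98 with shERK5-4 and 8.65, 8.90 and 8.85 with shERK5-5, against 6.67, 6.90 and 6.75 with shNSC. Its mean response was 0.96 in CHLA-90 and 2.16 in SK-N-BE(2), a difference of -1.20 ± 0.23 (adjusted p = 0.00366). LIX1L had a mean response of 1.26 in CHLA-90 and 2.34 in SK-N-BE(2) (difference -1.08 ± 0.22, 0.00470), and MFSD6, a transporter-like membrane protein, of 1.17 and 2.13 (-0.96 ± 0.21, 0.00813).

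MDM2 had 10.60, 10.50 and 10.58 with shERK5-4 and 10.12, 9.98 and 10.13 with shERK5-5 in CHLA-90, against 9.18, 9.10 and 8.93 with shNSC. In SK-N-BE(2) it had 10.00, 9.68 and 9.95 with shERK5-4 and 9.31, 9.76 and 9.85 with shERK5-5, against 7.70, 7.30 and 7.80 with shNSC. The hairpin arrays did not overlap the shNSC arrays in either line. Array medians differed between the lines (6.35 to 6.43 in CHLA-90 and 5.63 to 5.69 in SK-N-BE(2)), so levels are not compared across them. The mean response of MDM2 was 1.25 in CHLA-90 and 2.16 in SK-N-BE(2) (difference -0.91 ± 0.21, adjusted p = 0.0148), a call lost without SK-N-BE(2) shNSC replicate 2 (0.0710) or CHLA-90 shNSC replicate 1 (0.0525). SERPINI1 had 6.51, 6.83 and 6.96 with shERK5-4 and 7.17, 6.40 and 6.18 with shERK5-5 in CHLA-90, against 5.33, 5.60 and 5.92 with shNSC. Its SK-N-BE(2) signals were 7.94, 8.70 and 7.63 with shERK5-4 and 8.51, 8.25 and 8.19 with shERK5-5, against 5.78, 6.08 and 5.74 with shNSC. The difference of -1.28 ± 0.31 (adjusted p = 0.0201) was lost without SK-N-BE(2) shNSC replicate 1 (0.0578) or 3 (0.0560) or CHLA-90 shNSC replicate 3 (0.0843). DYNLRB1 (-0.89, adjusted p = 0.0242), CMTM3 (-0.92, 0.0269) and MEIS3 (-1.07, 0.0368) were the other 3. NECTIN1 lay on the opposite side of 0 at 0.53, with an interval of -0.12 to 1.17.

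**Figure D5:**
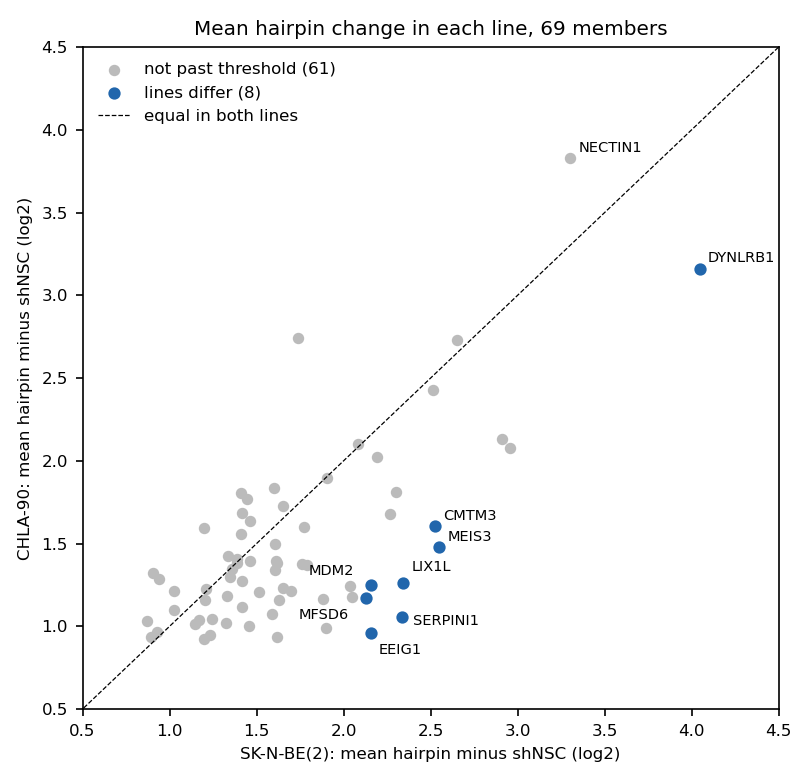
Mean of both hairpins minus shNSC (log2 signal) of each member in SK-N-BE(2) (horizontal axis) and CHLA-90 (vertical axis), with the 8 members whose response differed between the lines in blue and the line of equality dashed. All 8 lie below the line of equality, from DYNLRB1 at 3.16 in CHLA-90 and 4.05 in SK-N-BE(2) down to EEIG1 at 0.96 and 2.16.

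Close relatives of the leading members were called in both directions and did not move as a body. The comparison covered 76 measured non-members from 10 lists of their families, partner proteins and the ERK5 cascade, with the target MAPK7 set aside. With the mean of the hairpins, 8 were higher and 9 lower in CHLA-90 by limma (5.57% and 6.29% of all probes), with a median of 0.08 beside 0.03 over all probes. In SK-N-BE(2) 18 were higher and 12 lower (8.58% and 8.43% of all probes), with a median of 0.07 beside 0.00. As shares of the 76, the counts exceeded those of all probes in both directions and both lines. The list of the AUTS2 family, to which FBRSL1 belongs, and its Polycomb partners had the highest medians of the 10. They were 0.73 in CHLA-90 and 0.93 in SK-N-BE(2). Of its 4 measured non-members, 2 in CHLA-90 and 3 in SK-N-BE(2) were called higher and 0 lower. The mean often rested on 1 hairpin: 3 of the 8 higher and 3 of the 9 lower in CHLA-90, and 6 of the 18 higher and 4 of the 12 lower in SK-N-BE(2), were also called with each hairpin alone. The CHLA-90 count of 8 was 4 without shNSC replicate 1 and 5 without shNSC replicate 2 or 3. The lists were drawn up with earlier results of these data known.

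Relatives that moved with each hairpin alone came from several families. In CHLA-90 the plus-end proteins CLIP2 (1.40 with shERK5-4 and 0.97 with shERK5-5) and PAFAH1B1, a dynein regulator (1.11 and 0.86), and the kinase MAP3K2 (0.62 and 0.74) rose. PLPP4, a lipid phosphatase related to PLPPR2, fell by 1.37 with shERK5-4 and 0.95 with shERK5-5, the kinase PI4K2A by 0.67 and 0.50 and the sorting adaptor GGA2 by 1.08 and 1.36. In SK-N-BE(2) the dynein intermediate chain DYNC1I1 (0.96 and 1.33) and heavy chain DYNC1H1 (0.56 and 0.59), the adaptor GGA1 (1.45 and 1.11), FBRS, the closest relative of FBRSL1 (2.20 and 0.87), the Polycomb protein PCGF5 (1.11 and 1.03) and MAP2K5 (0.95 and 0.77) rose. The adhesion molecule CADM1 fell there by 0.68 and 1.23, PLPPR5 by 0.68 and 0.60, PLPP4 by 1.10 and 1.25 and MEF2A by 1.29 and 1.04. PLPP4 was the relative that passed with each hairpin alone in both lines.

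Other relatives passed in the mean and with 1 hairpin or neither alone. NECTIN3 fell with shERK5-4 by 2.00 in CHLA-90 and 1.61 in SK-N-BE(2), and was -0.42 and -0.23 with shERK5-5 (adjusted p = 0.206 and 0.613). The phosphoinositide kinase PIP4K2A fell with shERK5-4 by 1.37 in CHLA-90 and 1.89 in SK-N-BE(2), and PI4KB by 0.76 and 1.18, while with shERK5-5 they were -0.24 and -0.02 (PIP4K2A) and -0.31 and -0.01 (PI4KB), none of them called. The kinase SGK1 rose with shERK5-5 (0.76 in CHLA-90 and 1.97 in SK-N-BE(2)) and was 0.30 and 0.06 with shERK5-4 (adjusted p = 0.317 and 0.872). In 1 gene in CHLA-90 and 4 in SK-N-BE(2) the hairpins had opposite signs. IGF2R, the second mannose 6-phosphate receptor beside M6PR, in CHLA-90 stood at 0.31 for shERK5-4 and at -1.44 for shERK5-5, and in SK-N-BE(2) at 0.39 and -1.94. In SK-N-BE(2) PLPPR4 was -0.26 with shERK5-4 and 1.85 with shERK5-5, the lipid kinase PIKFYVE 0.46 and -1.51, and the ATG8 family gene GABARAPL2 0.79 and -0.00. Among the 10 dynein genes and the 10 genes of the ATG8 conjugation system, 0 passed in the mean in CHLA-90, and of 2 other HCN channels 0 passed in either line. The remaining genes past the threshold in the mean were CADM1 (-0.96), CLASP2 (0.52), PLPPR5 (-0.56), FBRS (0.92), AUTS2 (0.75) and MEF2D (0.65) in CHLA-90. In SK-N-BE(2) they were NECTIN2 (0.54), CLASP1 (0.47), PAFAH1B1 (0.80), PLPP5 (0.68), ATG4A (0.67), GABARAP (0.50), ATG7 (-0.89), PIP4K2C (0.82), GGA2 (-1.49), GGA3 (-0.71), PCGF3 (0.79) and MEF2D (0.58).

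The 62 named members are all protein-coding, and 13 of them (21.0%) lie on chromosome 19, which holds 7.09% of the named probes, by the RefSeq gene table (GRCh38.p14). Chromosome 12 followed with 6 (9.68%, beside 5.25% of the named probes). Chromosomes 2 and 16 had 5 each (8.06%, beside 6.41% and 4.20%). The 13 are ARID3A, ATG4D, DDA1, DOT1L, HCN2, MEIS3, NFIC, PIP5K1C, PLPPR2, PPP6R1, RAB3A, USF2 and ZBTB7A. No pair of members were neighbours: the closest, NFIC and PIP5K1C, had 10 protein-coding genes between them. By position in it, 20 members overlap another protein-coding gene, and of 17 such partners with a probe, 0 are members. 3 of the 17 partners had all 4 differences above 0, the highest being ANO8 beside DDA1, with a smallest difference of 0.53. The matching shares over all genes were not computed for these overlaps or for the protein-coding class. Nothing is therefore read from those counts. The genes were of ordinary length, with a median of 32080 bases beside 25914 for all named probes.

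Promoter sequence was matched for 49 of the 62 named members (79.0%), under the 80% that a comparison of base composition or motif content over the set would need, so none was made. The start regions of the first 4 leading members with an entry are shown side by side as examples. Each runs 5′ to 3′ on the gene's own strand, from 250 bases before to 50 after its annotated start (RefSeq, GRCh38.p14). Capitals mark the GC box (GGGCGG or its reverse complement CCGCCC) and the CCAAT box (CCAAT or ATTGG), searched on both strands. The windows are chr20:34515352-34515651 (plus strand) for DYNLRB1, chr19:3700419-3700718 (minus) for PIP5K1C, chr12:8949596-8949895 (minus) for M6PR and chr2:26970387-26970686 (plus) for MAPRE3.
DYNLRB1: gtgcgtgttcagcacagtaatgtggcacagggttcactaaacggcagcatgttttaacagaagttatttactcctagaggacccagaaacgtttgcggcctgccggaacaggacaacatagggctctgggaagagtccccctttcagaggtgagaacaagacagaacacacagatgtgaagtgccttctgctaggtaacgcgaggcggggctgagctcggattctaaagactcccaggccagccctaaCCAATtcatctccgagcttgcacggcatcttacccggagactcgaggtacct
PIP5K1C: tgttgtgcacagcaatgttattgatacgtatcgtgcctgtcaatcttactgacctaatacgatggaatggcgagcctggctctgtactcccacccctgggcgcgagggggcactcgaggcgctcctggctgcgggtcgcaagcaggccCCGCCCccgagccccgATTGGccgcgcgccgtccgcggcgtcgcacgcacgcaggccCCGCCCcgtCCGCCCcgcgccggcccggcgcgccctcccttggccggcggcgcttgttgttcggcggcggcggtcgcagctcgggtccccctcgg
M6PR: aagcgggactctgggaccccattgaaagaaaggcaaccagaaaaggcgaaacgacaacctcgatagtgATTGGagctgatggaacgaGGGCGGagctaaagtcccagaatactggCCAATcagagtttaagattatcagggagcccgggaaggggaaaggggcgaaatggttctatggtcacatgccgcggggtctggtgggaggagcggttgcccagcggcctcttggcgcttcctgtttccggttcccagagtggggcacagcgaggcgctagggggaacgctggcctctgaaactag
MAPRE3: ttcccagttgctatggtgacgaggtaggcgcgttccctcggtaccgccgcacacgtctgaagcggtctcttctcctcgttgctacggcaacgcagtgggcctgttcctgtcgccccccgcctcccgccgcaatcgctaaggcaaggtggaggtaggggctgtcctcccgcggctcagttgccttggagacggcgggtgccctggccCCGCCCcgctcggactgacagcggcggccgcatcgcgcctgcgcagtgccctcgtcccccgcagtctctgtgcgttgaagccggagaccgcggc

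The DYNLRB1 window holds 0 GC boxes and 1 CCAAT box, that of PIP5K1C 3 and 1, that of M6PR 1 and 2 and that of MAPRE3 1 and 0. Their share of G and C was 53%, 71.7%, 57.7% and 69.3%. Among 27305 promoters of the same length, 44.6% hold a GC box and 35.7% a CCAAT box. The E-box CACGTG, the sequence bound by the member USF2, is in 7.43% of all promoters and in none of these windows, which says only that these letters are not there. None of the motifs named here was found in all 4 windows, and these windows do not stand for the set.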

How the data were processed

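Biotin-labelled total RNA was measured on whole-transcript arrays, per the labels' protocols. Each probe has 1 deposited log2 signal per array, already summarised by the authors. That the base is 2 was taken from the range of values. Software, normalization and genome build: not given in the sources used here. Detection calls were not used, and precision is limited by the number of arrays, since arrays have no read depth. Of 21448 probes 17709 had 1 gene symbol in a table of the array's probes and 3739 had none.

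One limma model (3.58.1 in R 4.3.3) with 6 group means was fitted to all 18 arrays with lmFit and eBayes (12 residual and 9.588 prior degrees of freedom). P-values are two-sided and Benjamini-Hochberg adjusted over every probe in a contrast and called under 0.05. The fit was tested on simulated data. The members, the lists and the tests were chosen with earlier results of these data known. Genes named in full are the 8 with the largest smallest difference, with others at the threshold, up to 5 for each test by p, and all relatives past the threshold. The remaining members were grouped by function after their values were seen. Alternatives were other normalizations, a dim-probe filter, a replicate block, fits to 1 line, eBayes with trend and robust estimation, other thresholds of the rule, group medians, and leaving out each array. Plots used matplotlib 3.10.9 (Python 3.11.15).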

Additional observations from a re-analysis of the deposited data

Results flagged for a closer look

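The response of 8 members differed between the cell lines by the test of the difference itself (limma, adjusted p under 0.05). The members were chosen by a rule on the same arrays, so this count is a description of the set. The differences of the 5 named by smallest p, CHLA-90 minus SK-N-BE(2), were -1.20 for EEIG1, -1.08 for LIX1L, -0.96 for MFSD6, -0.91 for MDM2 and -1.28 for SERPINI1. Each group had 3 arrays, too few to look for an outlying array within a group.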

How the results depend on the processing

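The set itself moved with the threshold, to 129 probes at 0.6 and 35 at 1. With group medians it held 74, of which 60 were among the 69, with median centring 65 (64 shared), with quantile normalization 69 (67 shared), and without single arrays 64 to 83. All later counts kept the 69 fixed. Without single arrays the members that differed between hairpins numbered 17 to 28 in CHLA-90 and 20 to 28 in SK-N-BE(2), those whose response differed between lines 4 to 9, and relatives higher 4 to 10 in CHLA-90 and 13 to 20 in SK-N-BE(2). MAPK7 kept its sign, with log2 changes of -1.18 to -0.96 (shERK5-4) and -1.19 to -0.88 (shERK5-5) in CHLA-90 and -0.86 to -0.59 and -0.80 to -0.53 in SK-N-BE(2). With the replicate block the members that differed between hairpins were 27 in CHLA-90 and 28 in SK-N-BE(2), those that differed between lines 10, and relatives higher 9 and 18. The block changed none of the 4 MAPK7 calls (-1.07, -0.99, -0.69 and -0.64). The labels say nothing of a shared batch, and the numbers were not taken to pair the arrays. Deviations of same-numbered arrays correlated between -0.06 and 0.20 in CHLA-90, over 0.1 in 4 of 9 pairs, and between -0.13 and 0.20 in SK-N-BE(2), over 0.1 in 3 of 9. Each array correlated best with its own number in 5 of 9 cases in either line. Replicate 3 stood apart: all 6 of its pairs lay between 0.11 and 0.20 and were best with their own number. On replicate 3 the members' median deviation from the mean of their own group was 0.05 to 0.10 in all 6 groups. Whether these arrays share a batch was not tested. Median centring, quantile normalization, leaving out dim probes, and trend and robust eBayes left each of these test counts within 1.5 times its value, as did fits to 1 line for all but the count between lines, which they cannot give. Of the 15 named tests of single members, 13 kept their call in every alternative run on them and without every array, and MDM2 and SERPINI1 lost theirs without single arrays as given above.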
